A study of Bos grunniens and Bos taurus with 11 samples.

Results

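A set of 79 predicted microRNAs (miRNAs) was examined, each of them a hairpin product of which 1 arm was measured and the other arm was not listed or lay under the same level. They were chosen by 3 conditions. The name had to be a prediction made from these reads rather than a match to a known miRNA, its mean over the 11 libraries had to reach 1 RPM (reads of the name per 1000000 of the reads given to any name), and the other arm of the same precursor number had to be unlisted or to stay under a mean of 1 RPM. A further 33 precursor numbers, that of m1080-5p among them, were left out by the choice itself, which removed 12 names that met the conditions otherwise. The 79 names were 7.55% of the 1046 predicted names and came from a table of 1377 names in all. Since measured levels chose them, their levels are given as a description and without a test. Each is called here by its precursor number and arm, such as m0269-3p. The known names tested beside them carry plant prefixes, such as ata and sly, and 0 names carried bta, the prefix of cattle. A predicted name may thus be a miRNA already known in mammals, which was not checked.

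The libraries came from lung tissue of adult male animals. CON was 2 Zaosheng cattle kept at 1500 m. T1, T2 and T3 were 3 yaks each from 3400 m, 4200 m and 5000 m, and the T2 animals came from 3 different places. The animals of CON, of T1 and of T3 came from 1 place per group. Each library was labelled as 1 animal. Species, altitude and place cannot be told apart between CON and the yak groups, nor altitude and place between yak groups. The extraction text in the labels speaks of retinas while every sample is labelled as lung. The tissue could not be checked against miRNA markers. Of 12 marker miRNAs of lung and blood cells 0 were found by name, and the tested known names carry plant prefixes.

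A miRNA is cut from a hairpin precursor, first by Drosha in the nucleus and then by Dicer in the cytoplasm. The cut leaves a short duplex with a strand from the 5′ arm (5p) and a strand from the 3′ arm (3p). One strand is usually loaded into an Argonaute protein, where its seed near the 5′ end pairs with messenger RNAs and lowers their translation or stability. The other strand is mostly degraded, so reads that pile up on one arm are a common picture in small RNA libraries. A prediction program calls such a hairpin from the placement of reads and from the folding of the genome around them. No function is known here for any of the 79 names, and no sequence of them was used.

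The libraries held 1536041 reads (T1 1) to 5388032 reads (T2 1), so that 1 read was worth 0.651 to 0.186 RPM. The name m1080-5p took 10.1% to 64.6% of the reads of a library and was lowest in T3 2, T3 1 and T1 1, with 10.1%, 12.8% and 21.7%. CON 1 and T2 2 stood apart, with reads for 28 and 19 known names against 88 to 118 in the other libraries. Values without these 2 libraries are given for the medians over the set and for the counts of names that follow each other in number. In a tissue made of many cell types, fewer cells of a type and less RNA per cell cannot be told apart.

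The 79 miRNAs together took 2.27% of the reads on average (SD 0.463, 11 libraries). The lowest share was 1.75% in CON 2 (95% Wilson interval 1.74% to 1.77%), and the highest was 3.32% in T2 2 (3.30% to 3.35%). These intervals cover counting error only, as the reads carried no molecular identifiers. The means of the groups were 2.19% ± 0.615 in CON, 2.19% ± 0.188 in T1, 2.30% ± 0.883 in T2 and 2.36% ± 0.190 in T3 (SD, 2 libraries in CON and 3 in each yak group), and they differed by less than the spread within CON or T2. As a share of the reads other than those of m1080-5p, the sum was 4.41% (SD 1.14). On that scale T3 2, T3 1 and T1 1 were the 3 lowest libraries at 2.84%, 2.49% and 2.75%, and the other 8 lay between 4.56% and 5.67%. The 164 names from the 82 predicted precursors with both arms at 1 RPM took 89.6% of the reads. No precursor number was left out of those 164, and m1080-5p, which is among them, took 44.3% on average. The 12 names with 1 arm measured that the choice left out took 7.92%. The shares of the 79 and of the 164 are therefore not from like sets.

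The levels were spread over more than 4 orders of magnitude, and few of the miRNAs held most of the reads. The mean was 1000 RPM or higher for 4 of them, 100 to 1000 RPM for 6, 10 to 100 RPM for 20, 2 to 10 RPM for 28 and 1 to 2 RPM for 21. The median of the means was 5.55 RPM. It was 37.0 RPM for the names of precursors with both arms measured, from which no number was left out. For the 12 names that the choice left out it was 7.81 RPM. The 2 most abundant, m0269-3p and m1400-3p, held 55.1% to 79.8% of the reads of the whole set in a library. The sum of the other 77 lay between 3858 RPM (T2 3) and 9754 RPM (T3 1).

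m0269-3p was the most abundant, at rank 12 among all listed names, with a CV (coefficient of variation, SD over mean across the 11 libraries) of 0.313. It was at 16113 and 9775 RPM in CON, 8926, 11841 and 15136 RPM in T1, 7759, 21383 and 11079 RPM in T2, and 9717, 15355 and 14357 RPM in T3. The group means lay between 11968 ± 3107 RPM in T1 and 13407 ± 7104 RPM in T2 (SD, 3 libraries each). All 4 groups overlapped, and both the lowest and the highest value of all 11 were T2 libraries.

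m1400-3p was the second most abundant and the least variable, with a CV of 0.222. Its level was 3543 and 3362 RPM in CON, 3003, 3793 and 4000 RPM in T1, 3084, 4815 and 3145 RPM in T2, and 2264, 2399 and 4156 RPM in T3. The 3 lowest values belonged to T3 1, T3 2 and T1 1, and the groups overlapped.

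m1124-5p and m0609-5p had the opposite order, with their 3 highest values in T1 1, T3 1 and T3 2. m1124-5p was at 1416 and 976 RPM in CON, 6704, 867 and 1388 RPM in T1, 2552, 1936 and 1080.2 RPM in T2, and 6079, 4436 and 1856 RPM in T3. m0609-5p was at 762.4 and 369 RPM in CON, 1759, 602 and 200 RPM in T1, 1665, 621 and 547 RPM in T2, and 2543, 2056 and 415 RPM in T3. Within T1 the highest and lowest libraries of m1124-5p lay 6704 against 867 RPM apart, so that T1 alone spanned its whole range.

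m1423-5p and m0298-5p were low in the same 3 libraries. m1423-5p was at 708 and 1362 RPM in CON, 95.05, 881 and 1130 RPM in T1, 329, 546 and 848 RPM in T2, and 43.6, 90.3 and 700 RPM in T3. m0298-5p was at 504 and 487 RPM in CON, 119, 883 and 1041 RPM in T1, 221, 673 and 381 RPM in T2, and 82.0, 125 and 853 RPM in T3. T1 1, T3 1 and T3 2 were under every other library for both names, while the remaining libraries of T1 and T3 were at the level of CON or above it for m0298-5p.

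Of the next 4, m0278-5p and m0192-5p were highest in CON 1, T2 1 and T2 2. m0278-5p was at 1196 and 277 RPM in CON, 202, 156 and 104 RPM in T1, 375, 639 and 131 RPM in T2, and 102, 117 and 166 RPM in T3. m0192-5p was at 315 and 56.7 RPM in CON, 24.7, 114 and 84.7 RPM in T1, 324, 531.1 and 78.8 RPM in T2, and 54.5, 47.6 and 67.4 RPM in T3. Both libraries of CON exceeded every library of T1 and of T3 for m0278-5p, whereas for m0192-5p CON 2 lay within the values of T1 and CON 1 above them.

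m0122-5p was even, with a CV of 0.317 and values from 185 RPM in T2 1 to 496 RPM in CON 1 around a mean of 286.8 RPM. m1321-3p was uneven, with a CV of 0.718, the lowest values of 8.03 RPM in T3 1 and 9.77 RPM in T1 1, and the highest of 317 RPM in T2 2. In both of them every yak group overlapped with CON. The plot of the 10 most abundant names shows these patterns side by side.

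**Figure D1:**
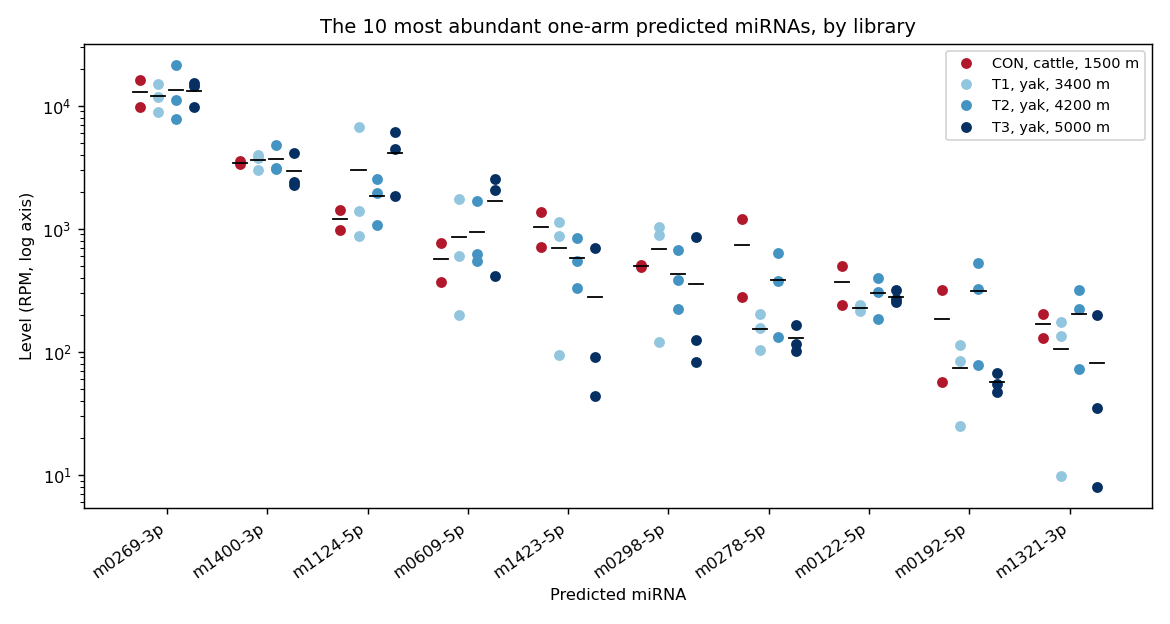
Level in RPM (log axis) of the 10 most abundant of the 79 miRNAs, with 1 point per library coloured by group (CON, 2 cattle; T1, T2 and T3, 3 yaks each) and a black bar at each group mean. m0269-3p and m1400-3p stay within 2.76-fold and 2.13-fold between the highest and lowest library, while m1423-5p spans 31.3-fold and m1321-3p 39.4-fold.

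The 5p arm was the measured one for 53 of the 79 miRNAs and the 3p arm for 26. The median of the means was 5.23 RPM for the 5p names and 10.9 RPM for the 3p names. Of the 10 names at 100 RPM or more, 7 were 5p and 3 were 3p.

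The arms differed in how often their partner was listed. The other arm was listed for 52 of the 79 and unlisted for 27, and all 27 unlisted partners belonged to 5p names. The partner of each of the 26 3p names was listed. The whole table had the same form, since 666 of its 856 predicted 5p names had no 3p partner and 0 of its 190 predicted 3p names lacked a 5p partner. The absence of a name was therefore not read as an absence of reads.

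Where the partner was listed, it had reads in 49 cases and none in any library in 3 cases. The partner, which the choice keeps under a mean of 1 RPM, never exceeded 32 reads summed over the 11 libraries. Its median was 9 reads. The ratio of reads between the measured and the other arm had a median of 23.6 over these 49 and ran from 1.43 for m1459-5p to 27645 for m0269-3p, the first of which was named after its values were seen. It exceeded 100 for 13 names and stayed under 10 for 11 names.

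Since the choice kept the other arm under a mean of 1 RPM, the ratio had to be high for abundant names. The reads of the most abundant names whose other arm had reads are therefore given as a description. m0269-3p had 331735 reads against 12 of its 5p arm, and m1400-3p had 92866 against 16. m1423-5p had 17515 reads against 15 of its 3p arm, m0298-5p 13261 against 2 and m0122-5p 7445 against 9. No 3p name was listed for m1124, m0609 or m0278, so no ratio could be given for them.

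The level cut decided the membership of some names. m0335-5p had 228 reads and a mean of 7.86 RPM, and its 3p arm had 32 reads and a mean of 0.988 RPM, just under the cut. The members nearest above the cut were m1112-5p at 1.03 RPM and m1386-5p at 1.05 RPM, and the names nearest below it were m1049-5p at 0.995 RPM and m0335-3p. With a cut of 2 RPM the conditions gave 71 names, 58 of them among the 79, and with a cut of 0.5 RPM they gave 101 names, 63 of them among the 79. A mean over the libraries other than CON 1 and T2 2 gave 80 names, of which 74 were among the 79.

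**Figure D2:**
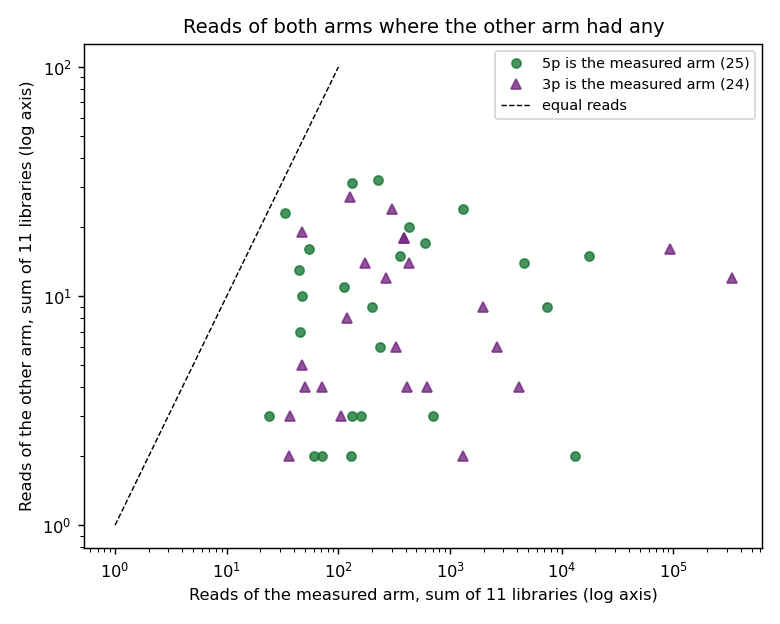
Reads of the measured arm (horizontal log axis) against reads of the other arm (vertical log axis), both summed over the 11 libraries, for the 49 miRNAs whose other arm had any read; circles are 25 5p names, triangles 24 3p names and the dashed line marks equal reads. The other arm stays at 32 reads or fewer however abundant the measured arm is, because the choice of the names limits it.

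Presence across the libraries followed the level. Reads were found in all 11 libraries for 34 of the 79 miRNAs, in 8 to 10 libraries for 27 and in 4 to 7 libraries for 18. Of the 30 with a mean of 10 RPM or more, 26 had reads in every library, against 8 of the 49 with a lower mean. Among the 164 names with both arms measured, from which no number was left out, 103 had reads in every library. T1 1, T2 3 and T3 1 held reads of 56 of the 79, and T2 1, the deepest library, held 75. A group without any read of a name was rare: it occurred for 5 names in CON, 1 in T1, 1 in T2 and 3 in T3.

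The spread over the 11 libraries was wide. The CV had a median of 0.9498 and ran from 0.222 for m1400-3p to 2.19 for m1112-5p. For the names with both arms measured, from which no number was left out, the median was 0.766. Counting error alone gave a median CV of 0.289. The observed CV was over 2 times the CV of counting for 68 of the 79, and for the other 11, all with a mean of 5.31 RPM or less, it was not. The CV over the libraries holds differences between groups, animals and library preparations together, and these were not separated.

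Among the 34 with reads in all 11 libraries, the 5 with the smallest CV were m1400-3p (0.222), m0269-3p (0.313), m0122-5p (0.317), m0570-5p (0.388) and m0811-5p (0.472). m0570-5p was at 12.8 and 20.8 RPM in CON, 4.56, 14.8 and 19.0 RPM in T1, 7.80, 15.7 and 18.1 RPM in T2, and 26.4, 17.8 and 23.3 RPM in T3. At the other end were m1310-3p (1.26), m0562-5p (1.24), m0474-5p (1.09), m0278-5p (1.06) and m0192-5p (1.05). m1310-3p was at 27.6 RPM in CON 1, 20.4 RPM in T2 1 and 28.9 RPM in T2 2, and at 7.57 RPM or less in each of the other 8 libraries. m0474-5p had its highest level, 31.6 RPM, in T1 3 and its lowest, 1.30 RPM, in T2 1.

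No miRNA of the set had 90% or more of its summed level in 1 library. The highest share was 65.6% for m1112-5p, of which T1 2 held 7.41 RPM or 18 reads. It was followed by m0151-5p with 62.4% in T2 1, and 5 names in all had more than 50% in 1 library. No 2 names had the same values in all libraries.

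**Figure D3:**
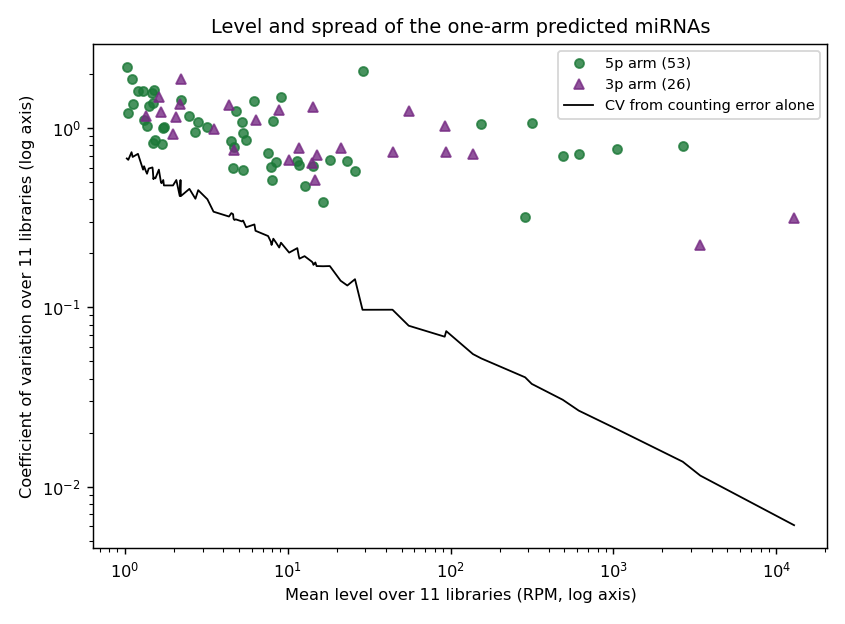
Mean level over the 11 libraries (RPM, log axis) against the coefficient of variation over the same libraries (log axis) for the 53 5p and 26 3p miRNAs; the black line joins the coefficient that counting error alone would give for each name. Most points lie above the line, and the distance closes toward 1 RPM.

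The libraries did not share the high levels evenly. T2 2 held the highest level of 24 of the 79 miRNAs, and the next libraries were T1 3 and T3 1 with 8 each. The 3 highest libraries of a name were CON 1, T2 1 and T2 2 for 14 names, which was the most common combination, and T1 1, T3 1 and T3 2 for 6 names. The first combination holds CON 1 and T2 2, the 2 libraries with reads for few known names (28 and 19). The second combination crosses T1 and T3 and is that of the 3 libraries with the least m1080-5p. Among the 34 with reads everywhere, these 3 libraries were the 3 lowest for 7 names (m1400-3p, m1423-5p, m0298-5p, m0192-5p, m1321-3p, m1332-3p and m1336-3p) and the 3 highest for 4 (m1124-5p, m0609-5p, m0986-5p and m0559-5p). m1332-3p, m1336-3p, m0986-5p and m0559-5p were named with their values in view. Neither the part of m1080-5p in these orders nor that of the few known names in CON 1 and T2 2 was tested.

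A run of 20 miRNAs with neighbouring precursor numbers, from m1309-5p to m1352-3p, had nearly the same order of libraries. The run was picked after the values were seen, as the longest stretch with gaps of 10 numbers or less, and therefore got no test of its own. The next longest such stretch held 4 names. What the order of the numbers stands for was not given in the sources used here. The run held 15 of the 26 3p names and 5 of the 53 5p names, and 19 of its 20 partners were listed.

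The summed level of the run was 825 and 329 RPM in CON, 107, 489 and 332 RPM in T1, 924, 1254 and 185 RPM in T2, and 75.7, 206 and 545 RPM in T3. T2 2, T2 1 and CON 1 were the highest, T3 1 and T1 1 were the lowest, and the highest was 16.6-fold the lowest. As a share of the reads other than those of m1080-5p it was 30.1-fold, with T2 1 the highest. The sum of the other 59 miRNAs varied 1.89-fold, between 16882 RPM (T2 1) and 31983 RPM (T2 2), and was mostly m0269-3p and m1400-3p. Without these the sum of the other 57 varied 2.64-fold, between 3672 RPM (T2 3) and 9679 RPM (T3 1). Each group overlapped with every other in the sum of the run.

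Name by name, the members of the run shared this order. A level above the name's own median was found for 19 of the 20 in T2 1, 18 in T2 2, 18 in CON 1, 16 in T1 2 and 15 in T3 3. It was found for 5 of the 20 in CON 2, 4 in T1 3, 3 in T3 2, 2 in T2 3 and none in T1 1 or T3 1. T2 2 was the highest library for 12 of the 20. The replicates of each group were thus divided, with T2 3 apart from T2 1 and T2 2, and CON 2 apart from CON 1. CON 1 and T2 2 are also the libraries with reads for few known names, and the part of this in the order was not tested.

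The abundant members of the run show it best. m1331-3p was at 181 and 28.0 RPM in CON, 40.4, 58.1 and 22.2 RPM in T1, 169, 322 and 33.2 RPM in T2, and 29.8, 43.8 and 84.6 RPM in T3. m1324-3p was at 100 and 28.7 RPM in CON, 0, 35.8 and 17.8 RPM in T1, 208, 150 and 9.85 RPM in T2, and 0, 6.49 and 50.7 RPM in T3. Both names were picked with their values in view, and in both CON 1, T2 1 and T2 2 were above the other 8 libraries.

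Names of precursors with both arms measured lay in the same stretch of numbers as well. There were 24 of them, T2 2 was the highest library for 10, and T3 1 was above the own median for 0 of the 24. In T2 2 the own median was exceeded by 20 of the 24, and in CON 1 by 16.

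**Figure D4:**
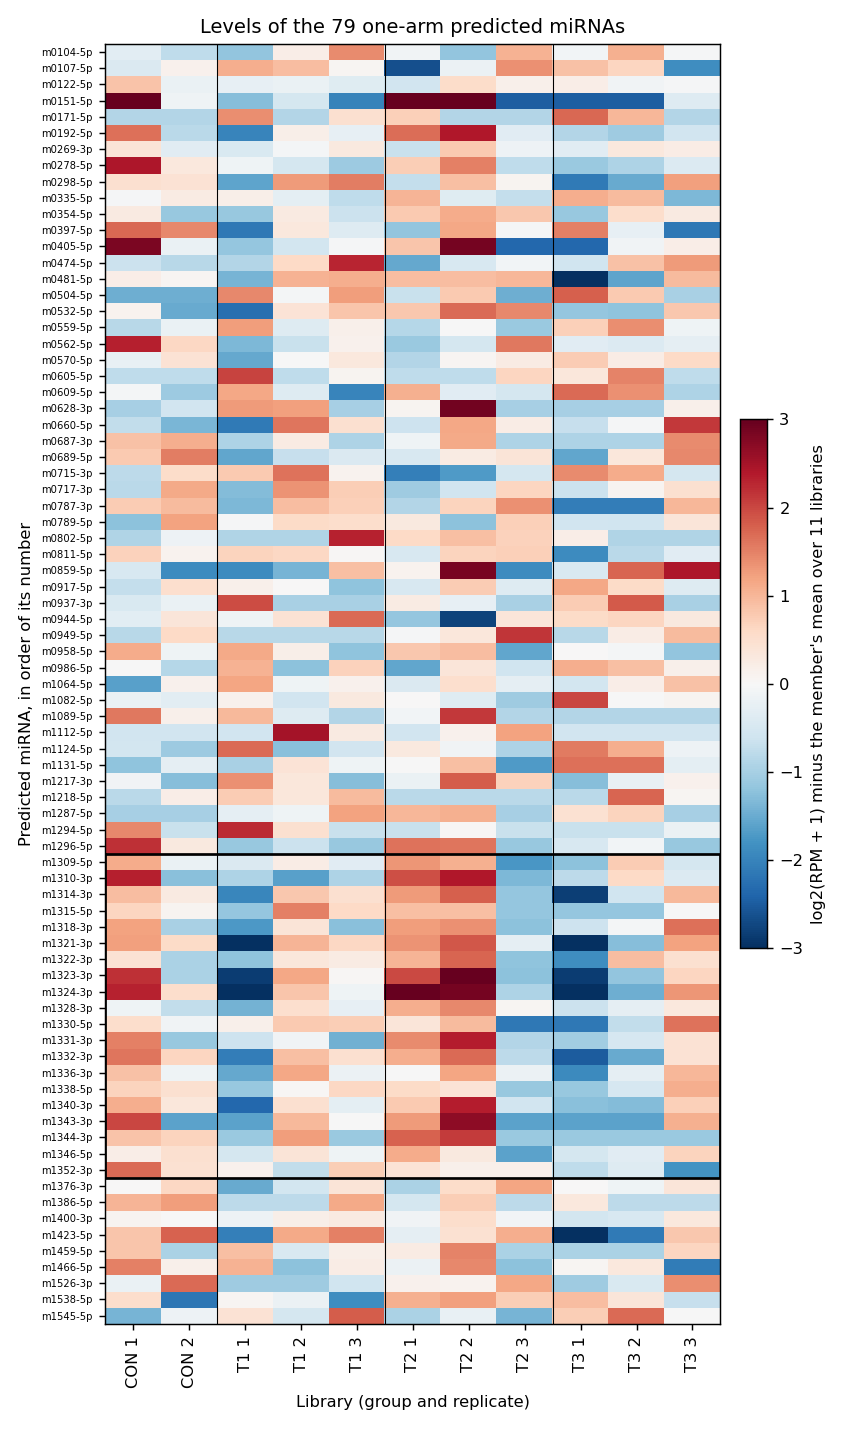
Heat map of the 79 miRNAs in order of precursor number (rows) over the 11 libraries (columns, parted by group), coloured by log2(RPM + 1) minus the name's mean over the libraries, with colours ending at 3 and −3. The box marks the 20 names from m1309-5p to m1352-3p, which are mostly red in CON 1, T2 1 and T2 2 and blue in T1 1 and T3 1.

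The design implies 7 contrasts: all yaks against CON, each yak group against CON, and the 3 pairs of yak groups. Each was tested with limma on log2(RPM + 1) over all 310 names at 1 RPM or more, known names included, so every one of the 79 was tested. Calls needed an adjusted p (Benjamini-Hochberg) below 0.05 together with a difference of 2-fold or more. The choice of the 79 used their mean over all libraries and not the contrasts. Names near the cut could still reach it mainly through the group where they were high. For these the cut and a contrast used the same values. m1112-5p, for example, averaged 2.73 RPM in T1, 1.03 RPM in T2 and 0 RPM in CON and T3. The 33 numbers that the choice left out also include names that lead these contrasts. Low counts of calls, of low p, of 2-fold estimates and of groups that do not overlap are therefore partly set by the choice. The contrasts with CON share its 2 libraries.

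No miRNA of the set was called in any of the 7 contrasts by limma. Over all 310 names, 0.968% were called between yak and CON, 0.323% each in T1, T2 and T3 against CON, and 0.0% in each of the 3 contrasts between yak groups. At an unadjusted limma p under 0.05, the set had 1 of 79 between yak and CON, where 5.16% of all names passed, 3 in T1 against CON (6.45%), none in T2 against CON (2.58%) and 2 in T3 against CON (14.5%). Between yak groups it had 3 in T2 against T1 (5.48%), none in T3 against T1 (2.9%) and 4 in T3 against T2 (13.9%).

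The other tools on the recovered reads gave the same or higher counts. The quasi-likelihood test of edgeR called none of the 79, where it called 1.29% of all names between yak and CON, 0.645% in each yak group against CON and 0.0% between yak groups. At an unadjusted p under 0.05 edgeR had 2 of the 79 between yak and CON (8.06% of all names), 4 in T1 (7.1%), 0 in T2 (3.23%) and 6 in T3 (14.2%) against CON. Between yak groups edgeR had 6 from T1 to T2 (7.42%), 0 from T1 to T3 (2.58%) and 7 from T2 to T3 (11.9%).

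DESeq2 called m0504-5p in T3 against CON, where it called 4.39% of all names with an adjusted p, and m0151-5p in T3 against T2, where it called 1.88%. It called none of the 79 elsewhere, beside 2.11% of all names between yak and CON, 1.62% in T1 and 0.974% in T2 against CON, 0.974% from T1 to T2 and 0.0% from T1 to T3. At an unadjusted p under 0.05 DESeq2 had 4 of the 79 between yak and CON (8.12% of all names), 6 in T1 (9.09%), 0 in T2 (3.57%) and 12 in T3 (17.5%) against CON. Between yak groups it had 10 from T1 to T2 (9.42%), 0 from T1 to T3 (3.9%) and 10 from T2 to T3 (14.6%).

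The size of difference that could have been seen was limited. The median standard error of a log2 difference over the 79 was 0.839 between yak and CON, 0.980 for 1 yak group against CON and 0.877 between yak groups. An estimate of 2-fold or more was found for 23 of 79 between yak and CON, or 29.1% beside 38.1% of all 310 names, and for 40 of 79 in T3 against CON, or 50.6% beside 61.6%. None of these passed the adjusted limit of limma. Only 15 of the 79 had 10 reads or more in every library.

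As a whole the set lay near all tested names. The median log2 difference of the 79 was −0.17 between yak and CON, beside −0.15 over all 310 names. It was −0.07 in T1 against CON (−0.12 over all names), −0.04 in T2 (0.09) and −0.29 in T3 (−0.37). Between yak groups it was 0.27 from T1 to T2 (0.28), −0.16 from T1 to T3 (−0.18) and −0.35 from T2 to T3 (−0.49). The scaling moved these medians. Over the reads other than those of m1080-5p the medians were −0.87 for the set and −0.95 for all names in T3 against CON, and −0.998 and −1.02 in T3 against T2. TMM scaling moved them the other way, to −0.12 for the set and −0.17 for all names in T3 against CON, and −0.09 and −0.19 in T3 against T2. Without CON 1 and T2 2 the median of the set was −0.10 between yak and CON (−0.04 over all names), 0.16 in T1 against CON (0.13), −0.11 in T2 (−0.06) and −0.05 in T3 (−0.09). It was then 0.01 from T1 to T2 (0.02) and −0.06 from T2 to T3 (−0.14), so that the sign turned in T1 against CON for the set and for all names and in T2 against CON for all names.

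None of the 79 separated all yaks from both cattle. Over all 310 names, 2.26% had every yak library above both CON libraries and 1.29% had every yak library below them. For the set the counts were 0 and 0. The numbers left out include names that lead this contrast, so these counts are partly set by the choice. For the other contrasts the share of all names without overlap is not given. Groups of 2 or 3 libraries can easily fail to overlap, so a lack of overlap told below describes the named miRNA only.

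**Figure D5:**
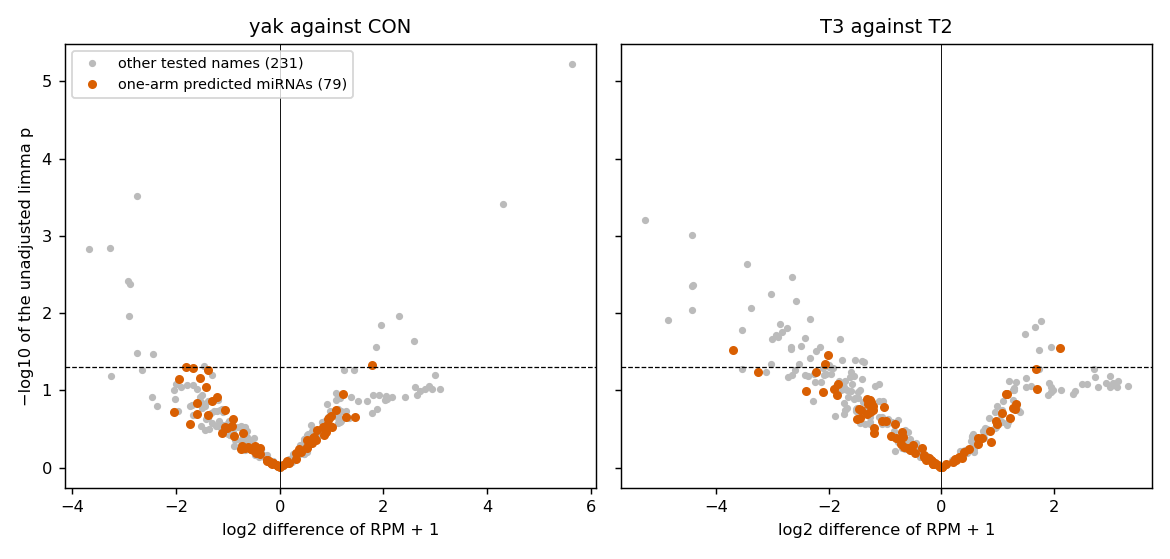
Log2 difference of RPM + 1 (horizontal) against −log10 of the unadjusted limma p (vertical) for the 79 miRNAs (orange) and the other 231 tested names (grey), for yak against CON (left) and T3 against T2 (right); the dashed line marks an unadjusted p of 0.05. In the left panel 1 of the 79 lies above the line and in the right panel 4, and none passed after adjustment.

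Between yak and CON, m0504-5p had the lowest p among the names higher in yaks. It had no read in either cattle library and stood at 6.51, 1.65 and 5.54 RPM in T1, 0.742, 3.78 and 0 RPM in T2, and 8.60, 3.78 and 0.409 RPM in T3. T2 3 also lacked reads, so the groups met at 0, and the highest level rested on 15 reads. Taking 3 reads in each cattle library as the floor, 1.13 RPM on average, the yak mean of 3.45 ± 3.004 RPM (SD, 9 libraries) was 3.05-fold the floor. The T1 mean was 4.04-fold, the T2 mean 1.33-fold and the T3 mean 3.77-fold the floor. T2 1, T2 3 and T3 3 lay under it, so these ratios of means are not lower limits. The limma p was 0.046 between yak and CON and 0.028 in T1 against CON, with adjusted p of 0.668 and 0.540. In T3 against CON the adjusted p was 0.293 by limma, 0.267 by edgeR and 0.037 by DESeq2.

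m1287-5p came next, also without a read in CON. It was at 0.651, 0.823 and 3.56 RPM in T1, 2.97, 3.15 and 0 RPM in T2, and 1.72, 2.16 and 0 RPM in T3, from 16 reads at most, so the groups met at 0. The limma p between yak and CON was 0.110, and the yak mean was 1.48-fold the floor.

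The names with the lowest p on the side of cattle were m0562-5p and m0278-5p. m0562-5p was at 20.2 and 5.46 RPM in CON, 0.651, 1.65 and 3.56 RPM in T1, 0.928, 1.89 and 11.5 RPM in T2, and 2.29, 2.16 and 2.45 RPM in T3. Of the 9 yak libraries, T2 3 alone reached the range of CON. Its log2 difference was −1.81 ± 0.85 (SE) with a limma p of 0.050 and an adjusted p of 0.668. m0278-5p, with the values given above, had a log2 difference of −1.67 ± 0.79 between yak and CON (limma p 0.051) and of −2.19 ± 0.92 in T3 against CON (limma p 0.031, adjusted p 0.293). T2 1 and T2 2 lay above the lower CON library.

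In T1 against CON, m1296-5p and m0689-5p were lower at an unadjusted limma p of 0.028 and 0.041, and both had an adjusted p of 0.540. m1296-5p was at 9.06 and 1.71 RPM in CON and 0, 0.412 and 0 RPM in T1, which was 1 read in the 3 libraries together. It was at 5.75, 5.66 and 0 RPM in T2 and 0.573, 1.08 and 0 RPM in T3. CON and T1 did not overlap, yet T2 1 and T2 2 were within the range of CON. m0689-5p was at 4.12 and 7.51 RPM in CON, 0, 0.823 and 1.19 RPM in T1, 1.11, 2.52 and 2.87 RPM in T2, and 0, 2.70 and 6.95 RPM in T3. Its T1 and T2 libraries were all below CON and its T3 libraries were not. m1112-5p was the second name on the higher side, with a limma p that missed the limit and 18 of its 27 reads in T1 2.

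In T2 against CON no p was under 0.05, and the adjusted p was 0.999 for each of the 79. The names with the lowest p were m0532-5p and m0354-5p on the higher side and m1386-5p and m0562-5p on the lower. m0532-5p was at 4.12 and 0.683 RPM in CON and 7.42, 14.5 and 11.9 RPM in T2, with 0, 5.35 and 7.52 RPM in T1 and 1.15, 1.08 and 7.36 RPM in T3. T2 did not overlap with CON, at a log2 difference of 2.02 ± 1.10 and a limma p of 0.087. m0354-5p was at 1.65 and 0 RPM in CON against 2.78, 3.78 and 2.87 RPM in T2, from at most 15 reads a library, with a limma p of 0.109. m1386-5p was at 2.47 and 3.07 RPM in CON against 0.186, 1.89 and 0 RPM in T2, with a limma p of 0.108.

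In T3 against CON, m1423-5p had a log2 difference of −2.79 ± 1.21, with a limma p of 0.035 and an adjusted p of 0.293. T3 1 and T3 2 were far below CON, and T3 3 at 700 RPM was just below CON 1 at 708 RPM, so the difference rested on 2 of the 3 libraries, which were among the 3 with the least m1080-5p. m1124-5p was the second name on the higher side, with a log2 difference of 1.65 ± 0.89 and a limma p of 0.085. Its 3 T3 libraries were above both CON libraries, and 2 of them were among the same 3. The part of m1080-5p in either difference was not tested.

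In T2 against T1, m0715-3p had the lowest p of the set, 0.019 by limma, with a log2 difference of −2.27 ± 0.86 and an adjusted p of 0.580. Its 5p arm is listed without a read. The 3p arm was at 120, 219 and 76.0 RPM in T1, 16.1, 20.8 and 48.0 RPM in T2, and 189, 153 and 48.2 RPM in T3, with 40.0 and 103 RPM in CON. T2 did not overlap with T1 or T3, although the gap between T2 3 and T3 3 was that between 48.0 and 48.2 RPM. In T3 against T2 the log2 difference was 2.10 ± 0.86 (limma p 0.028, adjusted p 0.289). The low level in T2 thus appeared in both contrasts, which share the T2 libraries.

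m0151-5p was uneven within T2. It was at 59.7 and 4.10 RPM in CON, 1.30, 2.88 and 0.396 RPM in T1, 198, 47.2 and 0 RPM in T2, and 0, 0 and 3.27 RPM in T3. T2 1, with 1065 reads, held 62.4% of its summed level, while T2 3 from the same group had none. The log2 difference was 3.19 ± 1.55 in T2 against T1 (limma p 0.057, adjusted p 0.580) and −3.71 ± 1.55 in T3 against T2 (limma p 0.030, adjusted p 0.289). Without T2 3 the differences were 5.40 and −5.91, with limma adjusted p of 0.035 and 0.012, and both would be called. What share of all names would be called without T2 3 is not given here. DESeq2 with all libraries gave an adjusted p of 0.0497 in T3 against T2, and edgeR gave 0.244.

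The other names of T2 against T1 were sparse. m0949-5p had no read in T1 and 0.742, 1.26 and 6.98 RPM in T2, the last from 17 reads, with a limma p of 0.036 and an adjusted p of 0.580. m1218-5p had no read in T2 and 1.95, 1.24 and 2.37 RPM in T1, from 3, 3 and 6 reads, with a limma p of 0.043 and the same adjusted p. Neither pair of groups overlapped. The mean of the group with reads was 2.05-fold and 1.51-fold the floor of 3 reads a library. For m0949-5p T2 1 and T2 2 lay under that floor. This name averaged 2.99 RPM in T2, 0.854 RPM in CON and 1.18 RPM in T3, so it reached the cut of 1 RPM mainly through T2.

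In T3 against T1 no p was under 0.05 and every adjusted p was 1.0. The names with the lowest p were m0859-5p and m1131-5p on the higher side and m1112-5p and m0811-5p on the lower. m0811-5p had reads in every library, with 18.2, 17.7 and 11.5 RPM in T1 and 2.29, 5.95 and 8.58 RPM in T3. The groups did not overlap, and the log2 difference was −1.45 ± 0.86 with a limma p of 0.113. It was at 18.5 and 11.95 RPM in CON and 7.61, 18.2 and 18.9 RPM in T2. m0859-5p was at 0, 0.412 and 5.93 RPM in T1 and 1.72, 11.4 and 18.8 RPM in T3, which overlapped. m1131-5p reached 9.17 and 9.19 RPM in T3 1 and T3 2, from 16 and 17 reads, and was at 1.63 RPM in T3 3, within the range of T1.

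In T3 against T2, m1344-3p and m0192-5p were lower at a limma p of 0.035 and 0.046, both with an adjusted p of 0.289. m1344-3p had no read in T3 and stood at 6.31, 8.18 and 0 RPM in T2, 2.88 and 2.39 RPM in CON, and 0, 4.12 and 0 RPM in T1. T2 3 was at 0 like T3, so the groups met there, and the T2 mean was 3.17-fold the floor of 3 reads a library. Without T2 3 its log2 difference went from −2.02 to −3.03 and the limma adjusted p to 0.048, a call, for which no share over all names is given here. m0192-5p had every T3 library below every T2 library, with a log2 difference of −2.08 ± 0.95. m1545-5p, the second name on the higher side, was at 0.371, 1.26 and 0 RPM in T2 and 3.44, 7.57 and 1.63 RPM in T3, which did not overlap, with a log2 difference of 1.67 ± 0.80 and a limma p of 0.053.

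The run from m1309-5p to m1352-3p lay lower in T3 than in T2 for 19 of its 20 names. Its median log2 difference was −1.21, beside −0.17 for the other 59 miRNAs and −0.49 over all 310 names. The 24 names with both arms measured in the same stretch of numbers had a similar order. Their medians of log2(RPM + 1), centred on each name's mean, were 0.74, 1.12 and −0.86 in T2 1 to T2 3. In T3 1 to T3 3 they were −1.62, −0.73 and 0.57. Those of the run were 1.18, 1.72 and −1.14 in T2, and −1.24, −0.55 and 0.66 in T3. The run held 1 of the 4 names under an unadjusted p of 0.05, m1344-3p. With TMM scaling 16 of 20 were lower, at a median of −0.83 (0.05 for the other 59), and without CON 1 and T2 2 also 16 of 20, at −0.64 (0.11). Over the reads other than those of m1080-5p it was 20 of 20, at −1.76 (−0.60), with edgeR 17 of 20, at −0.94 (0.31), and with DESeq2 13 of 20, at −0.68 (0.57). The median of the other 59 thus changed its sign with the setting. Between yak and CON 18 of 20 were lower, at a median of −0.61 (0.07 for the other 59), and without CON 1 and T2 2 it was 13 of 20, at −0.21 (−0.09). The yak groups were unlike in this: 17 of 20 were lower in T1 and in T3 against CON, at −0.87 and −0.85, but 8 of 20 in T2, at 0.11. Of the other 59, 28 were lower between yak and CON and 33 in T3 against T2. These counts describe names that vary together and are not replicates of each other.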

How the data were processed

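Small RNA libraries from lung of 2 cattle and 9 yaks were analysed from 1 table per library. As the study's methods describe, the authors removed adapters and low-quality reads, took out other small RNAs by comparison with Rfam, took known names from miRBase, and predicted further miRNAs with Bowtie2 and MIREAP on the yak assembly BosGru_v2.0, on which cattle reads were also placed. Tool versions were not given in the sources used here. The authors deposited RPM values, which sum to 1000000 over the 1377 names of each library. Of the 4651 values above 0, 100.0% were whole multiples of the value of 1 read (tolerance 0.01 reads), and the reads recovered in this way give the depth, 1536041 to 5388032 per library. They cover reads of listed names only.

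Predicted names were selected by level and arm, and the members and lists were chosen with earlier results of these data known. limma 3.58.1 in R 4.3.3 was run with a variance trend on log2(RPM + 1), a pseudocount of 1, over all 11 libraries with 1 mean per group and 310 names at a mean of 1 RPM or more. For yak, the 3 yak group means were averaged. p-values were two-sided and were adjusted over all 310 names. They set a difference of group means against the spread between libraries of a group. That spread holds animals and library preparations together, and places in T2 only. Named were the 10 highest means, the 2 lowest p in each direction of each contrast, the 5 smallest and 5 largest CV among names with reads in all libraries, the names nearest the cut, and those with the most reads whose other arm had reads. Others are marked. edgeR 4.0.16 and DESeq2 1.42.0 on the recovered reads were alternatives, beside 2 pseudocounts, 2 filters, 2 scalings, a replicate block, a term for CON 1 and T2 2, leaving both out, and leaving out each library. Replicate libraries were checked for duplication (chi-square per degree of freedom 56.7 or more). The scripts were tested on simulated data. Python 3.11.15 with numpy 2.4.6, pandas 2.3.3, scipy 1.17.1 and matplotlib 3.10.9 was used.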

Additional observations from a re-analysis of the deposited data

Results flagged for a closer look

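One value was far from the others of its kind. m0562-5p stood at 11.5 RPM in T2 3, the highest of the 9 yak libraries, and its gap to the next value, as a share of the range of the 9, exceeded Dixon's 95% limit. The next yak library was T1 3 at 3.56 RPM, and the value rests on 28 reads. Of 31 names examined in this way 1 was found, where chance alone would give 1.55, or about 1 in 20.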

How the results depend on the processing

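The 22 alternative fits gave 0 calls among the 79 in every contrast, with these exceptions. DESeq2 called 1 in T3 against CON and 1 in T3 against T2. Leaving out 1 library at a time gave 0 to 1 calls in T2 against T1 and 0 to 2 in T3 against T2, in both cases only without T2 3. Of the log2 differences of named miRNAs under these alternatives, 589 stayed on the same side of the limits and 5 came past them. The lowest adjusted p of a member in any alternative was 0.012. The cause of the changes was not tested. With at least 10 reads in every library only 15 of the 79 could be tested. The summed level rose from 2.27% to 4.41% when the reads of m1080-5p were left out of the total, as a smaller total gives a larger share. TMM factors ran from 0.755 to 1.92, the highest in T2 2. The replicate block, a term for the number in the titles, gave 0 calls in all 7 contrasts. The numbers were not taken to pair the animals: the correlation of deviations from the group means lay between −0.823 and 0.610, and 5 of 15 pairs exceeded 0.1. Only libraries with the same number were compared, so structure shared by other libraries was not covered. The −0.823 was that of CON 2 and T2 2. As the 2 CON libraries deviate in opposite ways from their mean, CON 1 and T2 2 deviated alike. Depth limits the low names, for which 3 reads are worth up to 1.95 RPM in T1 1.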
